A study of Homo sapiens with 32 samples.

Results

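The 9 long noncoding RNAs (lncRNAs) with a known link to DNA damage, p53 or RNA stress, LNCAROD, NEAT1, MALAT1, MIR34AHG, LINC-PINT, H19, MEG3, GAS5 and SNHG1, are among the 60107 genes counted. They were chosen by name, with earlier results of these data in view, so their values in the 4 treatment or genotype comparisons below are a description. A call of a member there says only on which side of the cutoffs used for all genes it fell, and is not independent evidence. The data are 3′-end RNA counts from 32 libraries of 2 human cell lines, HEK293T (embryonic kidney) and U2OS (osteosarcoma). Each count is a sequenced molecule, read by a method meant for the end near the poly(A) tail. Camptothecin (CPT) traps topoisomerase I on DNA; DMSO is its solvent control; ATM is the kinase that signals double-strand breaks.

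The libraries form 8 sets of 4. Libraries 22 to 25 are HEK293T with DMSO and libraries 18 to 21 are labelled HEK293T ATM KO, whereas the study's methods describe RNA sequencing of HEK293T treated with the ATM inhibitor Ku-55933 at 9 µM. Libraries 30 to 33 are U2OS with DMSO and libraries 26 to 29 are U2OS with CPT, given at 400 nM for 24 h with 48 h of recovery. Libraries 10, 12, 14 and 16 are labelled U2OS ATM KO, libraries 11, 13 and 15 U2OS WT and library 17 HEK293T DMSO. Libraries 2, 4, 6 and 8 are labelled HEK293T CPT, libraries 3, 5 and 7 HEK293T DMSO and library 1 U2OS WT. For HEK293T the methods give 100 nM CPT in the proteomics, whose cells were also used for RNA. Libraries labelled CPT, DMSO or HEK293T ATM KO are recorded with 24 h of treatment and 48 h of recovery. Those labelled U2OS WT or U2OS ATM KO are recorded with 72 h of growth. The knockout cells were single clones made with CRISPR. The methods describe the repeats of each experiment as independent.

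For 14 of the 32 libraries, all numbered 1 to 17, markers of the cell line disagreed with the label. The 10 U2OS markers summed to 1060.5 to 1198.3 CPM (counts scaled to a common library total) in U2OS DMSO, to 1437.2 to 2196.5 CPM in libraries 1, 3, 5 and 7, to 1606.5 to 1752.9 CPM in libraries 2, 4, 6 and 8, and to 54.455 to 125.23 CPM in libraries 10 to 17 and 18 to 25. Libraries 1 to 17 are therefore given by number and label, and no direction is drawn from them for a drug or a knockout. ATM itself was at 31.97 ± 4.33 CPM in libraries 10, 12, 14 and 16 and 27.67 ± 5.50 CPM in libraries 11, 13, 15 and 17 (SD, n = 4 each). In the sets with U2OS markers it was at 56.13 ± 14.05 CPM in libraries 2, 4, 6 and 8 and 68.04 ± 7.91 CPM in libraries 1, 3, 5 and 7. A 3′ tag does not report a CRISPR lesion elsewhere in the gene. Gene counts ran from 1232674 to 6362433 per library, so that 3 counts stood for 0.4715 to 2.434 CPM.

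As background, p53 is stabilised after DNA damage and switches on genes for arrest, repair and death, among them several lncRNAs. NEAT1 is the architectural RNA of nuclear paraspeckles and MALAT1, its neighbour on the chromosome, is kept in nuclear speckles. The counts are per gene and do not tell which transcript of NEAT1 or MALAT1 they come from. A poly(A) signal was found in 1 of 8 NEAT1 transcripts and 8 of 17 MALAT1 transcripts, beside 39% of the 26866 lncRNA transcripts listed. The longest run of A was 22 bases in NEAT1 and 13 in MALAT1. The part of such runs in the counts was not tested. GAS5 and SNHG1 carry small nucleolar RNAs (snoRNAs) in their introns, and their spliced RNA is degraded by nonsense-mediated decay. H19 and MEG3 are imprinted, LINC-PINT and MIR34AHG are p53-induced transcripts, and LNCAROD is named as an activator of its neighbour DKK1.

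The sequences below are those of the miRNAs hosted by MIR34AHG and H19, with the seed (bases 2 to 8) in capitals, and of the promoter windows of LNCAROD and LINC-PINT, the members called higher in CPT-treated U2OS. They come from RefSeq (GRCh38.p14). miR-34a-5p (chr1:9151735-9151756, minus strand) and miR-34a-3p lie in MIR34AHG, and miR-675-5p and miR-675-3p in H19. No 2 of these 4 seeds are alike.
miR-34a-5p: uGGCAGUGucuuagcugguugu
miR-34a-3p: cAAUCAGCaaguauacugcccu
miR-675-5p: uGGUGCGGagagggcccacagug
miR-675-3p: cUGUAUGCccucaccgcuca

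Each promoter window runs from 250 bases before to 50 after an annotated start. Capitals mark the motif TGANTCA, a loose pattern for AP-1 that allows any middle base and is the same on both strands. The middle base was G in the LNCAROD window and T or A in the LINC-PINT window. Sites were not counted by middle base. The LNCAROD window is chr10:52455223-52455522 and the LINC-PINT window chr7:130913261-130913560, both on the minus strand. They were picked because they hold the motif: the other LNCAROD window and the other 3 LINC-PINT windows listed have 0 sites, and the LINC-PINT window shown lies outside the GENCODE 29 locus of the gene. Of the 35116 promoters listed, 7.71% held TGANTCA. LINC-PINT also held the E-box CACGTG, found in 7.26% of promoters. The p53 half-site was found in none of the 15 windows of the 8 members with a promoter listed and in 6.63% of all promoters.
LNCAROD: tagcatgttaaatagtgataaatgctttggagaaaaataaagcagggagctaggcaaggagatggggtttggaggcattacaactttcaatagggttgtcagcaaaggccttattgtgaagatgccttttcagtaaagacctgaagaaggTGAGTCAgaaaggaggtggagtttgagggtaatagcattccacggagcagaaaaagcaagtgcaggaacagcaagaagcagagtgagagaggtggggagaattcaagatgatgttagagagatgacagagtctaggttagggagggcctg
LINC-PINT: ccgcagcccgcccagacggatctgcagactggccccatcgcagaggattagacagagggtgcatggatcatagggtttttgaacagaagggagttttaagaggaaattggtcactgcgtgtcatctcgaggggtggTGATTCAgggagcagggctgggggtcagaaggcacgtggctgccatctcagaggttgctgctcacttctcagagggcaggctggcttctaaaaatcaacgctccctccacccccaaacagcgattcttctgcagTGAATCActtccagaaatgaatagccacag

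In U2OS, LNCAROD and LINC-PINT were called higher after CPT, MALAT1 lay higher and SNHG1 lower in every CPT library than in any DMSO library, and NEAT1, GAS5 and H19 overlapped. A gene was called when its log2 fold change exceeded 1 and its adjusted p was below 0.05, by edgeR's quasi-likelihood test. Of the 7 members tested, 2 were called higher and 0 lower, beside 13.5% of all genes tested called in either direction, 7.97% called higher and 5.5% called lower. The median log2 fold change was 0.36 over the 7 members and 0.01 over all genes.

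LNCAROD lies at chr10:52450874-52755409 (minus strand, GRCh38, GENCODE 29) as a long intergenic RNA. Its counts were 144, 103, 97 and 116 in the CPT libraries and 3, 0, 0 and 0 in the DMSO libraries. All 4 CPT libraries lay above all DMSO libraries, at 41.3 ± 5.1 CPM (SD, n = 4) against 0.22 CPM. The ratio of summed CPM was 184.66, with an exact interval of 62.793 to 898.73 that covers counting error only. In HEK293T libraries 18 to 25 it had 0 counts, and in libraries 1 to 8 it had at most 4 counts. Its neighbour PRKG1, a cGMP-dependent kinase, had a log2 fold change of -0.57 (SE 0.20), and DKK1, a secreted Wnt inhibitor, was not tested in this comparison because it was too low.

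LINC-PINT (chr7:130938963-131110176) had 14, 12, 9 and 16 counts with CPT and 4, 9, 3 and 9 with DMSO. The groups did not overlap in CPM, at 4.57 ± 0.87 against 1.89 ± 1.02 (SD, n = 4). The log2 fold change was 1.28 (SE 0.37), and it was called in all 8 fits that left out 1 library. Neighbouring MKLN1, on the opposite strand, gave -0.07 (SE 0.13), and PODXL 0.76 (SE 0.14).

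MALAT1 (chr11:65497688-65506516) was at 19511, 17699, 15879 and 14166 CPM with CPT and 7689.2, 7424.3, 10653 and 10310 CPM with DMSO. Every CPT library exceeded every DMSO library, by a log2 fold change of 0.91 (SE 0.13), which is under the fold cutoff. NEAT1 (chr11:65422774-65445540) was at 1308.7, 1134.9, 1315.8 and 1367.3 CPM with CPT and 895.92, 896.13, 1066.7 and 1163.8 CPM with DMSO. Its groups overlapped, with a log2 fold change of 0.36 (SE 0.11).

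SNHG1 was the only member whose CPT libraries all lay below the DMSO libraries, at 59.717, 52.361, 54.251 and 66.218 CPM against 74.391, 97.502, 84.77 and 100.13 CPM. Its log2 fold change was -0.61 (SE 0.13), short of the fold cutoff. GAS5 gave 0.21 (SE 0.13) and H19 -0.09 (SE 0.30), both with overlapping groups. In all, 3 members were higher and 1 lower without overlap, beside 30.1% of genes. MIR34AHG had 1 count in 1 CPT library, and MEG3 had 0 in all 8 libraries, so neither was tested. The summed U2OS markers were 2327.6 to 2470.8 CPM with CPT against 1060.5 to 1198.3 CPM with DMSO, and the HEK293T markers 261.81 to 274.4 against 410.03 to 546.51 CPM. Of the latter, SOX2 went from a mean of 204.49 CPM with DMSO to 11.994 CPM with CPT, and was at 18.432 CPM in HEK293T DMSO. Between the lines with DMSO, 3 of these HEK293T markers (SOX2, NEFL and CRMP1) were called higher in U2OS and 3 lower. The part of the markers in these results was not tested.

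**Figure D1:**
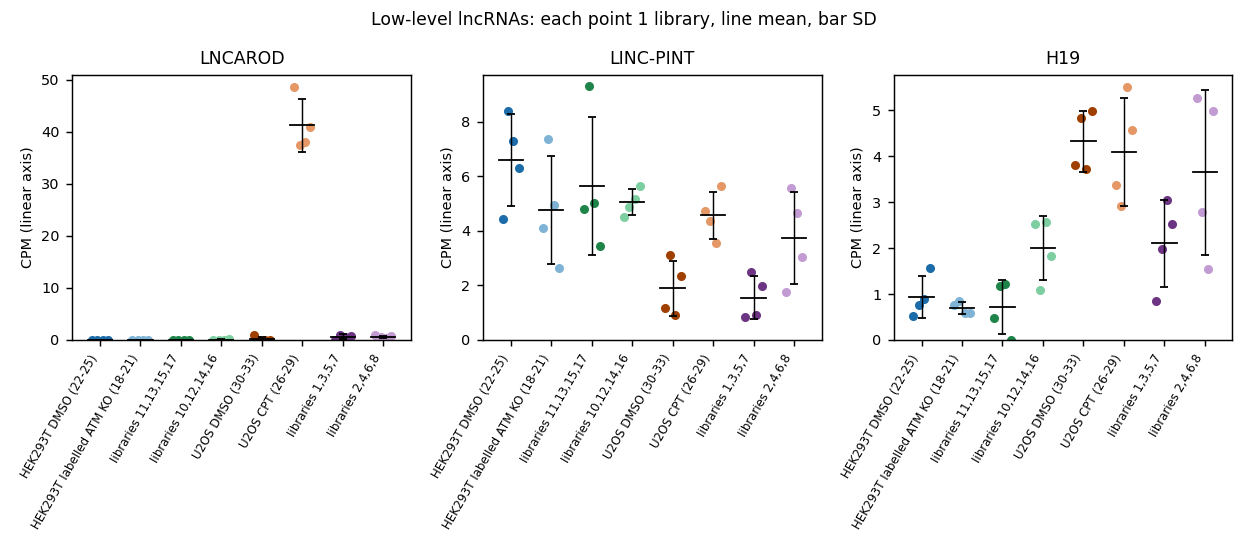
LNCAROD, LINC-PINT and H19 in CPM (linear axes) in the 8 sets; points are libraries, the line the mean and the bar the SD (n = 4). LNCAROD stands at 37.453 to 48.583 CPM in the 4 CPT-treated U2OS libraries and at most 0.99027 CPM elsewhere.

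Among 30 p53 targets 19 were called higher and 0 lower with CPT in U2OS, of 29 tested, with a median log2 fold change of 1.29. GDF15, a stress cytokine, rose from 31.2 to 382 CPM (log2 fold change 3.63), FAS, a death receptor, by 2.76, and GADD45A, a growth arrest gene, by 2.33 on the log2 scale. Of the 13 other damage-linked lncRNAs tested, 5 were called higher and 0 lower, with a median of 0.00: PURPL rose by 2.03, PVT1 by 1.25 and TP53TG1 by 1.07. Of 13 miRNA host genes tested, 3 were called higher and 1 lower, MIR222HG rising by 1.69 and MIR22HG by 1.21. MIR34AHG was not detected above 1 count, and these counts of the host gene do not measure mature miR-34a. Of 19 reported miR-34a targets 5 were called higher and 1 lower, among them CD44 (2.72), MET (1.94) and MYC (1.32). None of the 20 genes of paraspeckle proteins passed the fold cutoff, at a list median of -0.40, while by adjusted p alone 14 were lower and 1 higher, beside 31.9% of all genes and 5 of the 7 members. Of 13 imprinted genes tested 2 were called higher and 2 lower, PLAGL1 at 1.58, CDKN1C at -1.39 and PEG10 at -1.60.

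In libraries 18 to 21 against the HEK293T DMSO libraries, none of the 6 members tested was called, beside 0% of all genes called in either direction. edgeR's quasi-likelihood test called 0 of 18413 genes, 1019 of them at an unadjusted p under 0.05. The likelihood ratio test called 2 and DESeq2 0. SNHG1 was at 217.67, 219.31, 172.56 and 195.84 CPM against 235.77, 287.64, 255.41 and 220.39 CPM. These groups did not overlap, as for 3.07% of genes, and the log2 fold change was -0.30 (SE 0.11). The other 5 had overlapping groups and log2 fold changes from -0.46 to 0.03. LNCAROD, MIR34AHG and MEG3 had 0 counts in all 8 libraries. No gene of the lists used here, such as the 30 p53 targets (median -0.13) and the 28 other snoRNA host genes (median -0.10), was called in this comparison.

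Between libraries 10, 12, 14 and 16 and libraries 11, 13, 15 and 17, GAS5 and SNHG1 were lower in the former and NEAT1 and MALAT1 higher. Of 7 members tested 1 was called higher and 2 lower, beside 14% of all genes called, 9.52% higher and 4.45% lower. GAS5 (chr1:173863900-173868882, minus strand) was at 82.923, 66.834, 81 and 111.18 CPM against 186.86, 233.55, 275.66 and 180.37 CPM. The groups did not overlap, with a log2 fold change of -1.34 (SE 0.15), and the gene was called in all 8 fits that left out 1 library. SNHG1 (chr11:62851988-62855914, minus strand), in which GENCODE 29 places 7 snoRNAs, was at 123.68, 130.14, 105.33 and 134.7 CPM against 175.67, 344.83, 421.54 and 170.85 CPM. Its log2 fold change was -1.16 (SE 0.21), and -0.87 without library 15, which ended the call.

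NEAT1 was at 59.03, 48.903, 52.092 and 64.603 CPM against 24.457, 35.007, 34.86 and 28.981 CPM, a log2 fold change of 0.88 (SE 0.14). MALAT1 gave 0.65 (SE 0.12). Neither overlapped between groups, as for 30.3% of genes, and neither passed the fold cutoff. H19 (chr11:1995176-2001470) had 34 against 16 counts in all and was called at 1.43 (SE 0.53), but not without library 10, 11, 14, 16 or 17 and not by DESeq2 (filterByExpr left it untested). Library 17 had 0 counts of H19. Rows that name no gene took 17.02 to 19.77% of counts in libraries 10, 12, 14 and 16 and 10.87 to 12.41% in libraries 11, 13, 15 and 17, and the part of this in the differences was not tested. LINC-PINT gave -0.15 (SE 0.27) and MEG3, at 7 against 2 counts, 1.92 (SE 1.09). With library 1 in place of library 17, so that groups followed the labels, none of the 7 members was called. GAS5 then gave -1.11 (SE 0.43), and NEAT1 turned to -0.35 and MALAT1 to -0.39. The U2OS markers summed to 2048.6 CPM in library 1 and to 54.455 to 125.23 CPM in libraries 10 to 17. Library 1 had 215.59 CPM of NEAT1 and 8288 CPM of MALAT1. The part of this library in the changed values was not tested.

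**Figure D2:**
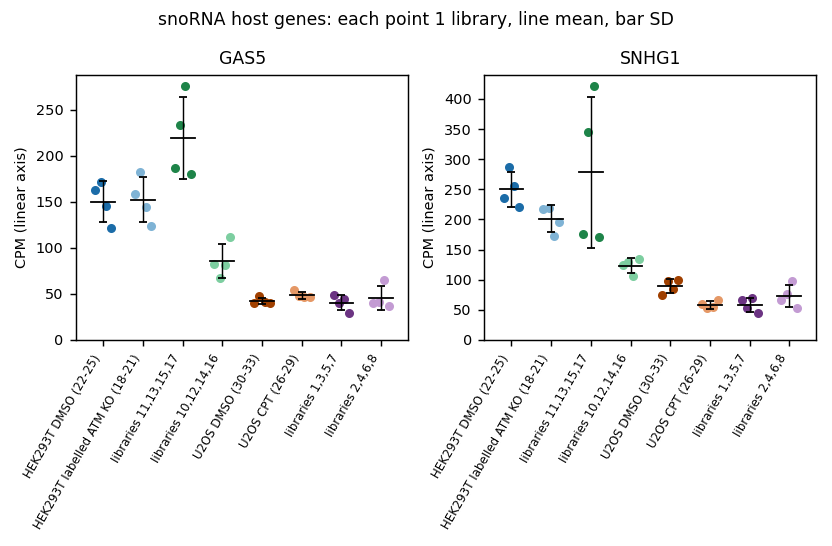
GAS5 and SNHG1 in CPM (linear axes) in the 8 sets; points are libraries, the line the mean and the bar the SD (n = 4). Libraries 10, 12, 14 and 16 lie at 66.834 to 111.18 CPM of GAS5, below the 180.37 to 275.66 CPM of libraries 11, 13, 15 and 17.

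Of the 28 other snoRNA host genes tested in this comparison, 0 were called higher and 5 lower, at a median log2 fold change of -0.51 beside 0.04 over all genes. SNHG7 fell by 1.44, EPB41L4A-AS1 by 1.35 and SNHG32 by 1.30 on the log2 scale. Of 12 nonsense-mediated decay factors none was called. The p53 targets gave 12 called higher and 0 lower of 30, with PLK2, a polo-like kinase, at 3.22, GDF15 at 2.94 and TP53INP1 at 2.53. IGF2, the growth factor beside H19, rose by 2.84 (SE 0.21) and CDKN1C, another imprinted gene, by 1.74. H6PD, beside MIR34AHG, fell by 1.33 and SPSB1 rose by 1.14, while MIR34AHG itself had 0 counts in all 8 libraries. MYC fell by 3.27 on the log2 scale. Of the locus neighbours of GAS5, CENPL gave 1.00 (SE 0.14) and ZBTB37, on the opposite strand, 0.65 (SE 0.16).

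**Figure D3:**
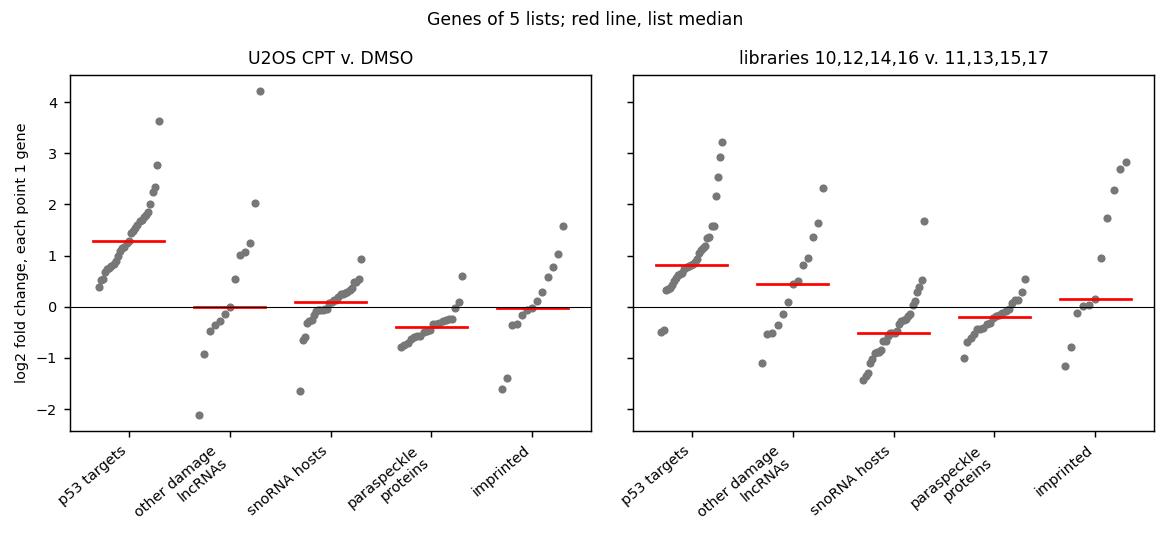
Fitted log2 fold changes of the genes of 5 lists in U2OS CPT against DMSO (left) and in libraries 10, 12, 14 and 16 against 11, 13, 15 and 17 (right); points are genes and red lines medians. The p53 targets have a median of 1.29 on the left, and the snoRNA host genes a median of -0.51 on the right.

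Between libraries 2, 4, 6 and 8 and libraries 1, 3, 5 and 7, all members tested overlapped between groups. Of 8 tested, 0 were called higher and 1 lower, beside 5.24% of all genes called (2.8% higher and 2.44% lower) and 15.1% without overlap. The call was MEG3 (chr14:100779410-100861031), with 1, 0, 1 and 0 counts against 4, 2, 6 and 1. The ratio of summed CPM was 0.11259, with an exact interval of 0.012336 to 0.49734, and the call was lost without library 1, 4, 5, 6 or 8. DESeq2 gave MEG3 no adjusted p, and filterByExpr left it untested. LINC-PINT gave 1.24 (SE 0.47) and was not called, except without library 2, without library 8 or by the likelihood ratio test. NEAT1 gave 0.62 (SE 0.17), at 347.41, 477.11, 400.64 and 240.05 CPM against 215.59, 319.36, 251.01 and 170.42 CPM. MIR34AHG had 1 count, in library 5. Of 29 p53 targets tested GDF15 was called higher, at 1.25, and of 13 miRNA host genes MIR100HG, at 1.25. MET, a miR-34a target, rose by 2.25 and JAG1 fell by 1.99 on the log2 scale. With groups as labelled, the controls were all 8 libraries labelled HEK293T DMSO. This added libraries 17 and 22 to 25 and left out library 1. GAS5 and SNHG1 then turned from 0.21 and 0.35 to -1.25 and -1.15, LINC-PINT to -0.17, and none of the members was called. The U2OS markers summed to 67.691 CPM in library 17 and 68.397 to 101.12 CPM in libraries 22 to 25. In libraries 2, 4, 6 and 8 they summed to 1606.5 to 1752.9 CPM, and the part of this difference was not tested.

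**Figure D4:**
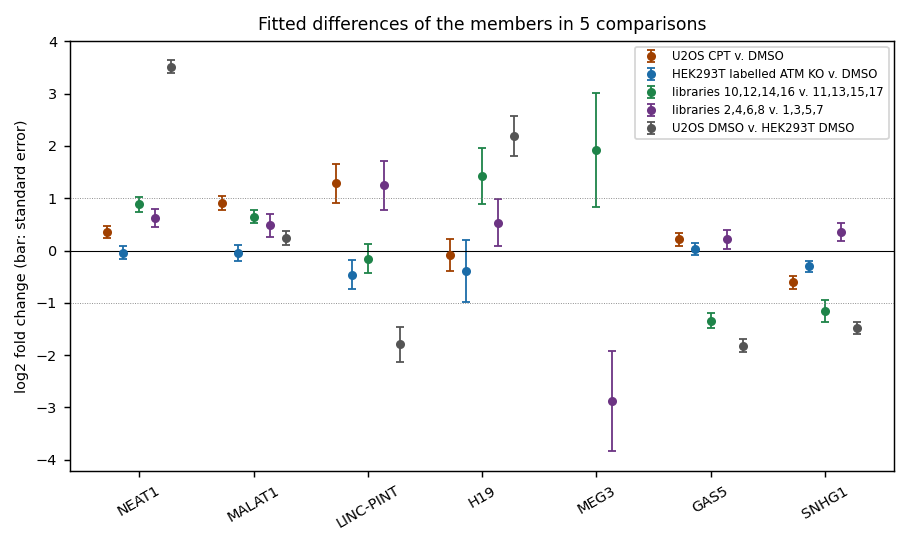
Fitted log2 fold changes with standard errors of 7 members in 5 comparisons; LNCAROD, on a larger scale, and MIR34AHG are left out, and dotted lines mark the fold cutoff of 1. NEAT1 reaches 3.52 between the cell lines, against -0.04 to 0.88 in the other comparisons.

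Between the cell lines, NEAT1 and H19 were higher in U2OS and GAS5, SNHG1 and LINC-PINT higher in HEK293T. This comparison, of U2OS DMSO with HEK293T DMSO libraries, is not among those the choice of members names. It shares their libraries and had been looked at earlier, so its p-values are not independent evidence. They come from the quasi-likelihood fit of edgeR and measure spread within 1 set of 4 libraries per line. Sets with markers of the same line were not always alike. NEAT1 averaged 1005.6 CPM in U2OS DMSO but 239.1 CPM in libraries 1, 3, 5 and 7. GAS5 was closer in these sets, at 42.3 and 40.6 CPM. The part of the set in the differences was not tested. Of 6 members tested 2 were called higher and 3 lower in U2OS, beside 39.9% of all genes called (21.8% higher and 18.1% lower), and the groups of 5 members did not overlap, as for 54.8% of genes. NEAT1 was at 895.92, 896.13, 1066.7 and 1163.8 CPM in U2OS and 83.181, 97.487, 89.936 and 82.548 CPM in HEK293T, a log2 fold change of 3.52 (SE 0.12, adjusted p = 4.212e-23). H19 was higher by 2.19 (SE 0.39, adjusted p = 8.975e-06), at 4.33 ± 0.66 against 0.93 ± 0.45 CPM (SD, n = 4), and its neighbour IGF2 by 3.40.

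GAS5 was lower in U2OS, at 40.417, 47.89, 40.838 and 40.104 CPM against 162.72, 171.36, 144.87 and 121.86 CPM, a log2 fold change of -1.82 (SE 0.12, adjusted p = 9.523e-15). SNHG1 was lower as well, by a log2 fold change of -1.48 (SE 0.12, adjusted p = 4.039e-13), and LINC-PINT by -1.79 (SE 0.33, adjusted p = 1.773e-05). Of 29 other snoRNA host genes tested 2 were called higher and 13 lower in U2OS, SNHG7 at -2.60 among them, while SNHG14 was higher at 6.29. MALAT1 was not called, at 0.24 (SE 0.13, adjusted p = 0.1161) with overlapping groups, at means of 9019.1 CPM in U2OS and 7686.7 CPM in HEK293T. Its mean was 8691 CPM in libraries 1, 3, 5 and 7 but 1572.5 CPM in libraries 11, 13, 15 and 17. The difference between these last sets was not tested. The 5 calls held in all 8 fits that left out 1 library.

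**Figure D5:**
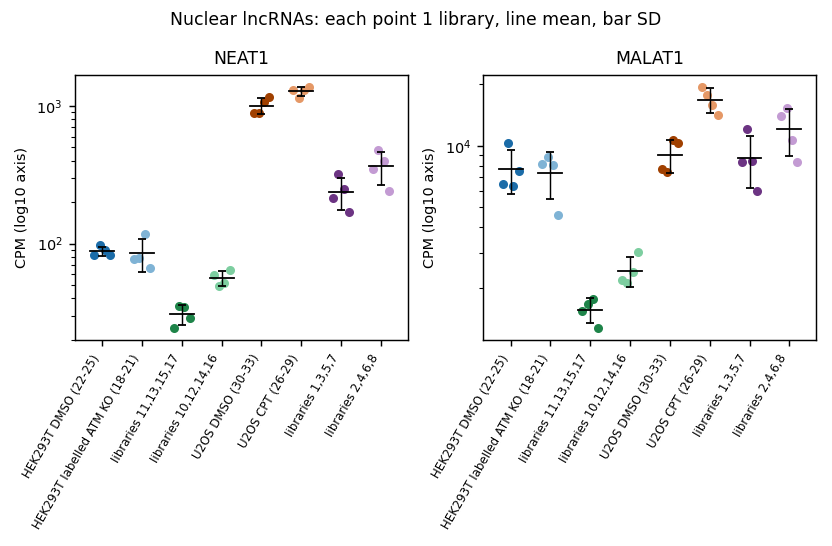
NEAT1 and MALAT1 in CPM (log10 axes) in the 8 sets; points are libraries, the line the mean and the bar the SD (n = 4). NEAT1 lies at 895.92 to 1367.3 CPM in libraries 26 to 33, at 170.42 to 477.11 CPM in libraries 1 to 8, and at most 117.74 CPM in the others.

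Ordered by mean level, NEAT1 ran from U2OS CPT (1281.7 CPM) and U2OS DMSO (1005.6 CPM), which overlap, to libraries 2, 4, 6 and 8 (366.3 CPM) and 1, 3, 5 and 7 (239.1 CPM), which overlap, then to HEK293T DMSO (88.3 CPM) and libraries 18 to 21 (85.1 CPM), which overlap, to libraries 10, 12, 14 and 16 (56.2 CPM) and to libraries 11, 13, 15 and 17 (30.8 CPM). Libraries 1 to 8 thus differed from libraries 26 to 33 in NEAT1 although both carry the U2OS markers. GAS5 was highest in libraries 11, 13, 15 and 17 (219 CPM), followed by libraries 18 to 21 (152 CPM), which overlap with them, and HEK293T DMSO (150 CPM), which overlap with libraries 18 to 21, by libraries 10, 12, 14 and 16 (85.5 CPM), and by the 4 sets with U2OS markers, at 40.6 to 48.6 CPM.

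Across all 32 libraries, after removing the mean of each set, GAS5 and SNHG1 had a correlation of 0.71 and MALAT1 and NEAT1 of 0.69. By this measure the gene most like NEAT1 among 9865 compared was GABPB1-AS1 (0.86), followed by SMG9 (0.80) and DGCR8 (0.80). Those most like GAS5 were APLP1 (0.75), UGGT2 (0.74) and SNHG1. With the set means kept, the correlations with NEAT1 were 0.07 (GABPB1-AS1), 0.46 (SMG9) and 0.61 (DGCR8). Those with GAS5 were -0.72 (APLP1), 0.13 (UGGT2) and 0.94 (SNHG1). By plain library totals, 3 of the 6 correlations between NEAT1, MALAT1, GAS5 and SNHG1 with set means removed moved and 0 reversed. These points share library, depth and set, and no test was made. LNCAROD and MIR34AHG were too sparse for this. In GENCODE 29, MALAT1, MIR34AHG, LINC-PINT, H19, MEG3 and GAS5 overlap features on the opposite strand (MKLN1 for LINC-PINT, GAS5-AS1 and ZBTB37 for GAS5), and strand use in counting is not given in the sources used here, so reads of the partners could not be told apart.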

How the data were processed

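The members and gene lists were chosen with earlier results of these data known. Per the methods, the authors made QuantSeq 3′ libraries with molecular identifiers, processed them with the BlueBee pipeline and deposited raw counts per gene. The aligner, genome build and strand setting are not given in the sources used here. Gene counts of the 32 libraries were used, leaving out 92 spike-in and 5 summary rows, which held 10.87 to 40.55% of counts. Groups follow the labels for libraries 18 to 33. For libraries 1 to 17 the sets follow library numbers. Control levels printed in the supplement were nearest to libraries 11, 13, 15 and 17 for HEK293T with CPT and to libraries 1, 3, 5 and 7 for the U2OS knockout, and no label was changed on this account. edgeR 4.0.16 (R 4.3.3) was run with TMM normalization and its quasi-likelihood test on genes that exceeded 1 count in 2 or more libraries of the fit, with Benjamini-Hochberg adjustment over all genes tested. The SE given for a log2 fold change is its absolute value divided by the square root of the quasi-likelihood F statistic. CPM are TMM-scaled over all libraries. DESeq2 1.42.0, other filters, normalizations and left-out libraries were tried as alternatives. The test was checked on simulated counts. The genes named from each list were the 3 called ones with the largest change and a mean log2 CPM over 3, besides the neighbours of the members. Each interval covers counting error only, at 95% confidence.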

Additional observations from a re-analysis of the deposited data

Results flagged for a closer look

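In U2OS DMSO, library 31 had 47.89 CPM of GAS5, apart from the others at 40.1 to 40.84 CPM. By plain library totals, without TMM scaling, it was at 47.83 CPM and the others were spread from 36.77 to 42.61 CPM. In libraries 2, 4, 6 and 8, library 6 had 64.74 CPM of GAS5, apart from 36.51 to 41.15 CPM in the other 3. Each was the highest of 4 and stood far from the rest by Dixon's test on TMM-scaled CPM. Such gaps were looked for in 51 groups, and chance gives about 1 in 20. Without library 6, the log2 fold change of GAS5 in that comparison went from 0.21 to -0.05, uncalled either way.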

How the results depend on the processing

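Of 522 log2 fold changes of members set beside the main fits, 504 stayed within the spread or, between the cell lines, kept their call. The others were 18 that moved and 0 that reversed a call's sign. The 522 include those without a cutoff on fold change, which are the main values again and could not move. Outside the cell-line comparison a reversal was counted only for called members, so NEAT1, uncalled, counts as moved where it turned from 0.88 to -0.35. The numbers of genes called moved with the cutoff and filter. Without a cutoff on fold change, 6091 genes were called in U2OS CPT, 1 in libraries 18 to 21, 6785 in libraries 10, 12, 14 and 16, 2415 in libraries 2, 4, 6 and 8, and 12256 between the cell lines. With the filterByExpr filter the counts were 1652 in U2OS CPT, 1461 in libraries 10, 12, 14 and 16, 644 in libraries 2, 4, 6 and 8, and 5090 between the cell lines, since fewer genes were tested. In libraries 18 to 21 the likelihood ratio test called 2, no filter 2 and all 32 libraries in one fit 1, and leaving out 1 library gave 0 to 14, the 14 without library 21. With groups as labelled, libraries 10, 12, 14 and 16 gave 631 and libraries 2, 4, 6 and 8 gave 1193 (478 higher and 715 lower, against 520 and 454). The controls of the former then held library 1, with U2OS markers. The controls of the latter were then all 8 libraries labelled HEK293T DMSO, libraries 22 to 25 among them. Leaving out 1 library gave 2411 to 2550 in U2OS CPT, 2360 to 2599 in libraries 10, 12, 14 and 16, 771 to 1053 in libraries 2, 4, 6 and 8, and 7518 to 7735 between the cell lines. Without library 30, which held all 3 DMSO counts, LNCAROD gave 9.96 in place of 7.29. No paired analysis was possible because library numbers do not recur across groups and the labels pair no libraries. MEG3 had 0 counts in libraries 18 to 33, where 3 counts stand for 0.721 to 1.039 CPM, and MIR34AHG had 1 count each in libraries 5 and 29 and 0 in the others.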
